A study of Mus musculus with 19 samples.

Results

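The mitosis genes are 41 genes whose proteins bring a cell into division, build the spindle, hold back and then release the separation of chromosomes, and pinch the cell apart. They were followed in mouse kidney after ischemia-reperfusion injury, in which the blood supply is stopped and then restored, with and without a Lactobacillus gavage beforehand. The genes were named by symbol and had to reach 1 FPKM, fragments scaled to gene length and to the size of the library, in at least 4 libraries. Of the 19287 entries of the expression table, 41 matched the 41 symbols by Entrez Gene ID, and all 41 reached that level. The level rule matters below: 24 of the 41 had no sham library at 1 FPKM, so they met it through the injured kidneys. Others, such as Plk1 (1 library) and Cdca8 (3 libraries), had fewer than 4 such sham libraries and also needed the injured kidneys to meet it. All 19 libraries were made from kidney RNA of male C57BL/6 mice, an inbred laboratory strain. IRLacz (4 libraries) stands for gavage with Lactobacillus casei Zhang before ischemia-reperfusion, and IRLac (5 libraries) was read as Lactobacillus acidophilus since that is the remaining strain, although the series text abbreviates it with a further letter. IR (5 libraries) stands for the same injury and sham (5 libraries) for the sham operation, and no gavage is given for either. Gavage lasted 4 weeks, and injured kidneys were taken on day 5 of recovery, while no day is listed for the sham kidneys. No vehicle gavage is given, so the effect of a bacterial strain and that of the gavage itself cannot be told apart.

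Entry into mitosis is set off by cyclin B bound to the kinase Cdk1, and the mitotic kinases Plk1, Aurora A and Aurora B then steer spindle assembly and chromosome attachment. The spindle checkpoint holds the anaphase-promoting complex back until every chromosome is attached. Once released, that ubiquitin ligase marks cyclin B for destruction, and the central spindle positions the cleavage furrow. Most of these genes are transcribed in G2 and mitosis, so they are widely read as markers of dividing cells. The adult kidney divides little at rest, and after ischemic injury surviving tubule cells, as well as interstitial and immune cells, enter the cell cycle.

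Genes of this class are known for a pair of promoter elements: the cell cycle genes homology region (CHR, here TTTGAA or TTCGAA), bound by the MuvB core that works with B-Myb and FoxM1, and the CCAAT box, bound by NF-Y. Both were searched on both strands of the RefSeq promoter windows of assembly GRCm38.p6, which run from 250 bases before to 50 bases after the gene start. Of the 41 genes, 36 had a window. The remaining 5 were Ccna2, Pbk, Aurkb, Tpx2 and Kif20a. A CHR was present in 27 of the 36 windows (75%), against 21.7% of all 27025 gene windows and 16.6% of the 10534 windows of entries tested for expression. A CCAAT box was present in 27 windows (75%), against 41.1% of all windows, and both elements together in 23 windows (63.9%), against 8.61%. Of 38 CHR matches, 26 began within 50 bases of the gene start, and in 1 window a CHR and a CCAAT box shared bases. Median GC content was 58.5% in the mitosis gene windows, 60.7% in the windows of tested entries and 52.8% in all windows. These shares are descriptions, and a match is not a binding site.

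The stretches below run from 120 bases before to 30 bases after the start, 5′ to 3′ on the gene's strand, with CHR and CCAAT matches in capitals. ATTGG is a CCAAT box and TTCAAA a CHR read on the opposite strand. Ube2c, Cdc20, Ccnb2 and Cdk1 are shown as genes that were high in injured and lower in IRLacz kidneys. Spc25 and Cks2 are shown as the genes that moved least with injury. The windows are chr2:164769809-164769958 (plus strand) for Ube2c, chr4:118437314-118437463 (minus strand) for Cdc20, chr9:70421525-70421674 (minus strand) for Ccnb2 and chr10:69352883-69353032 (minus strand) for Cdk1. Those of the other two are chr2:69206184-69206333 (minus strand) for Spc25 and chr13:51645112-51645261 (plus strand) for Cks2.
Ube2c: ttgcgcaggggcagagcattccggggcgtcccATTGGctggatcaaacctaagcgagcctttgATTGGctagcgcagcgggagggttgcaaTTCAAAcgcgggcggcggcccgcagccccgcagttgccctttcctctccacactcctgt
Cdc20: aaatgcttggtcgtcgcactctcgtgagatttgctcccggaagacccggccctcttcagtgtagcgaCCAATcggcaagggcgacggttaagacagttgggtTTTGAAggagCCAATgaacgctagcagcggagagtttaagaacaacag
Ccnb2: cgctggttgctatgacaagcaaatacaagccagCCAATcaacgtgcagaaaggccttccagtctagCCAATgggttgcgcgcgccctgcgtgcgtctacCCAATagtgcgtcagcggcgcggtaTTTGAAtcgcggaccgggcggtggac
Cdk1: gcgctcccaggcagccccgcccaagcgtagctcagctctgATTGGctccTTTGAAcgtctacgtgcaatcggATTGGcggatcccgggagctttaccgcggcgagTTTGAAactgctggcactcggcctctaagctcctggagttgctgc
Spc25: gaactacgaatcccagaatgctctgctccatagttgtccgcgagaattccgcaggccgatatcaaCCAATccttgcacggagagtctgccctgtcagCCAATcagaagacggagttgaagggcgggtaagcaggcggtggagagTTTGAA
Cks2: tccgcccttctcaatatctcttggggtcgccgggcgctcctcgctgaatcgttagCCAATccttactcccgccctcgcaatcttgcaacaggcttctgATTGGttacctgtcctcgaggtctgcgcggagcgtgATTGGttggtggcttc

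Ube2c, Ccnb2, Cdk1 and Spc25 each carry CCAAT boxes on the same strand whose first bases lie 31 to 33 bases apart, a spacing picked after the promoters had been looked at. That arrangement was found in 7 of the 36 windows (19.4%: Cdk1, Ccnb1, Ccnb2, Aurka, Nek2, Ube2c and Spc25), against 2.56% of 39 windows of other mitosis genes, 1.6% of the windows of tested entries and 0.918% of all windows. The Cks2 window held CCAAT boxes and no CHR, whereas Spc25 held both, with the CHR at position +25 (the first base of the gene is +1). Of 39 windows of other mitosis genes, 66.7% held a CHR, against 23.8% of the 21 windows of DNA replication genes.

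**Figure D1:**
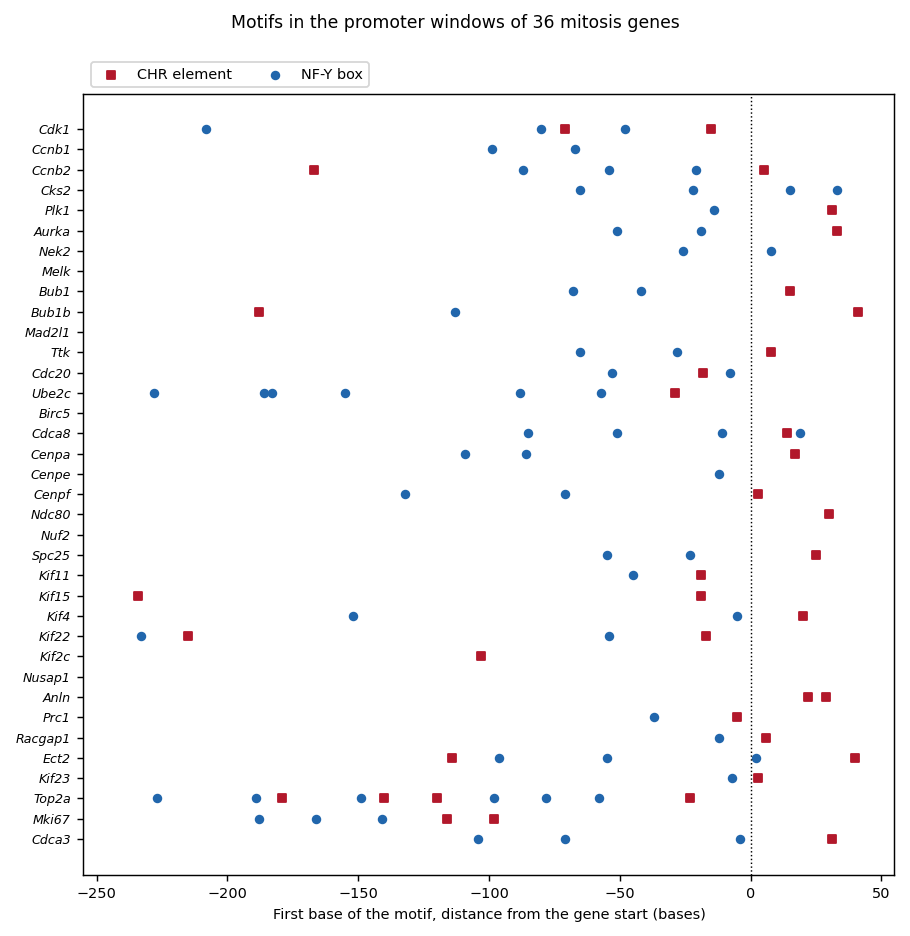
Position of each CHR element (red squares) and each NF-Y box (blue circles) in the promoter windows of 36 mitosis genes, as the distance of the first base from the gene start (dotted line); the windows run from 250 bases before to 50 bases after it. Red squares gather near the start, where 26 of 38 begin within 50 bases of it.

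Libraries of a group correlated at 0.9604 to 0.9929 on the log2(FPKM + 1) scale. Entries at 1 FPKM or more numbered 12750 to 13283 in injured and 11988 to 12156 in sham libraries, and read depth is not given. The 10 proximal tubule markers summed to at least 1949 FPKM in each library, so markers of the labelled tissue were detected throughout. A pair of gavaged libraries stood apart. On a line from the sham mean (0%) to the IR mean (100%) over all other tested entries, IRLacz replicate 1 reached 45.8% while IRLac replicate 3 reached 66.9%. The other gavaged libraries lay at 77.4% to 101%, IR libraries at 87.8% to 107% and sham libraries at -2.72% to 3.02%. Counts that change without the pair are given with and without them. IRLac replicate 3 is no part of IRLacz against IR. Leaving it out besides IRLacz replicate 1 keeps each difference there and alters only the spread estimated over all groups.

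In injured kidneys on day 5 the mitosis genes were far above sham, and in IRLacz kidneys they stood between sham and IR. The mean of log2(FPKM + 1) over the 41 genes was 2.13 ± 0.26 in IRLacz kidneys (SD, n = 4), 2.60 ± 0.32 in IRLac kidneys (n = 5), 2.78 ± 0.20 in IR kidneys (n = 5) and 0.83 ± 0.05 in sham kidneys (n = 5). By library it ran over 1.76 to 2.33 in IRLacz, 2.13 to 3.03 in IRLac, 2.54 to 3.02 in IR and 0.75 to 0.87 in sham. No IRLacz library reached the lowest IR library, and each injured library lay above each sham library. Without replicate 1 the IRLacz mean was 2.26, and without replicate 3 the IRLac mean was 2.72. In bulk tissue, fewer dividing cells and less of these RNAs per cell cannot be told apart.

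**Figure D2:**
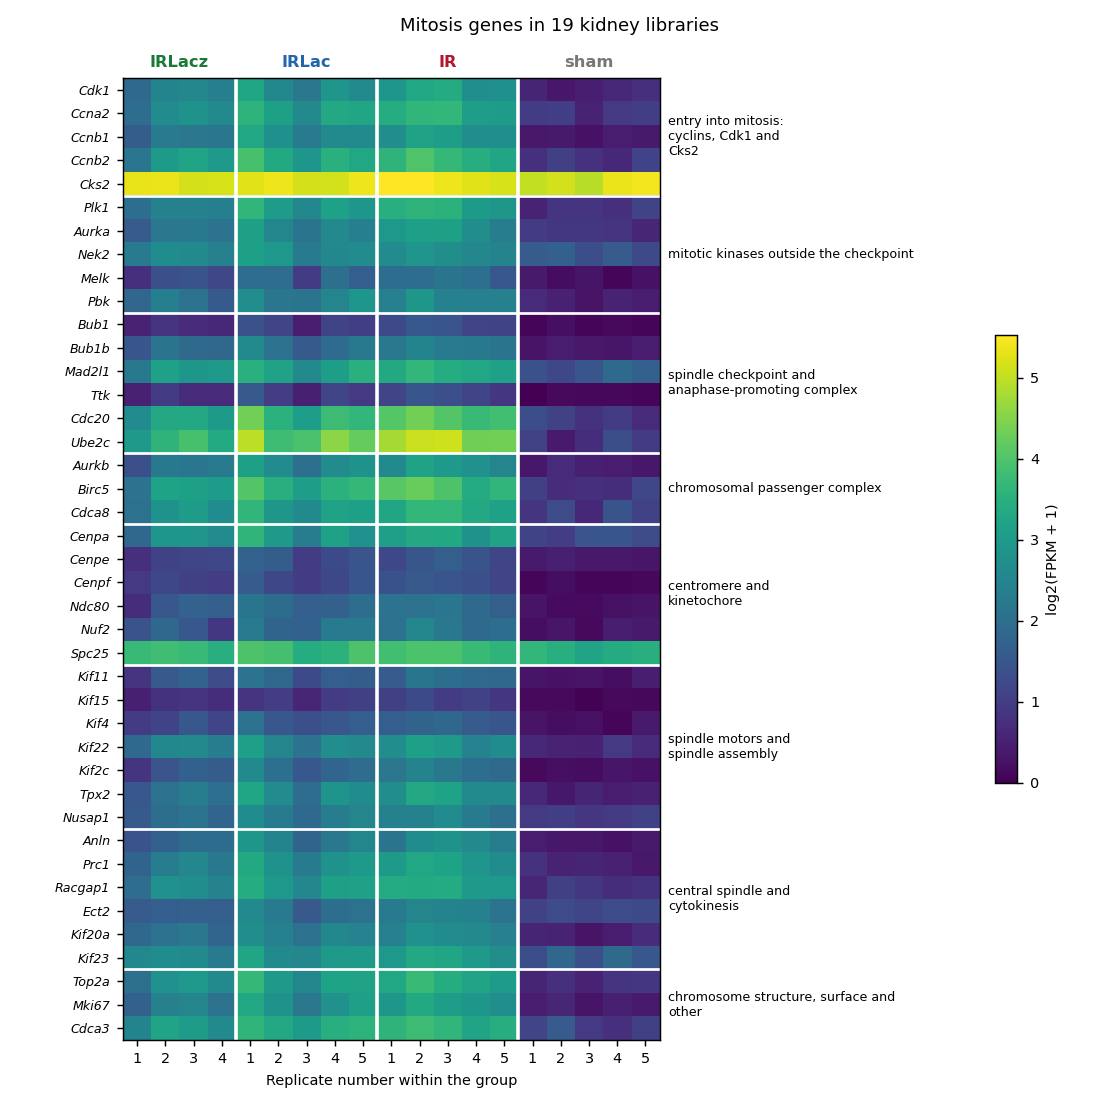
Level of the 41 mitosis genes as log2(FPKM + 1) (colour) in each of the 19 libraries (columns, by group and replicate number), with genes (rows) ordered by role. The sham columns are dark in nearly every row, Cks2 is bright and Spc25 is mid-range in every column, and the IRLacz columns are darker than the IR columns in most rows.

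Against sham, limma on log2(FPKM + 1) with Benjamini-Hochberg adjustment over all 13594 tested entries placed 40 of the 41 genes higher in IR, 39 in IRLacz and 40 in IRLac, and none lower. Over all tested entries on the deposited scale, 57% were called higher and 18.6% lower in IR, 56.9% higher and 13.5% lower in IRLacz, and 58% higher and 16.8% lower in IRLac. Of the genes, 24 had no sham library at 1 FPKM and others had fewer than 4, so they met the level rule only with injured kidneys. These counts therefore describe the genes and are no support for a particular response. Cks2 was the gene not called in any of these comparisons, and Spc25 was also not called in IRLacz. The median over all entries lay 0.29 above 0 on the log2 scale in IR against sham and 0.01 above it after median-ratio scaling, and 0.06 below 0 after quantile scaling. The share of all calls that were higher therefore turned on the scale: it was 75.4% as deposited, 50.6% with median-ratio and 44.4% with quantile scaling in IR against sham. In IRLacz against sham it was 80.8%, 50.2% and 45.5%, and in IRLac against sham 77.5%, 49.9% and 46.2%. The log2 differences in IR ran from 0.20 for Cks2 to 3.83 for Ube2c, so Cks2 lay below that shift and Spc25, at 0.37, just above it.

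Against IR, IRLacz kidneys had lower mitosis gene RNA. limma called 31 of the 41 genes lower and none higher, while 7.92% of all tested entries were called lower and 5.39% higher. Of the 31, Bub1 and Kif15 had no IRLacz library at 1 FPKM and met the level rule through other groups, so their calls are descriptions. The other 29 had at least 1 such library. Among them Melk, Ndc80, Nuf2, Kif11, Kif4 and Kif2c had their lowest IRLacz library at 0.65 to 0.94 FPKM. These genes did not meet the rule within IRLacz and needed other groups, so their calls are descriptions too. All 41 differences lay below 0, from -1.27 (Ube2c) to -0.11 (Cks2), with a median of -0.70 beside 0.00 over all entries. In 28 genes no IRLacz library overlapped an IR library, against 6.85% of all entries lower in that way. The unadjusted p was under 0.05 with a lower level in 38 genes, against 16.7% of entries. Under TPM, median-ratio and quantile scaling the median over the 41 genes was -0.77, -0.69 and -0.70.

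IRLac kidneys did not show a called difference from IR. limma called 0 of the 41 genes, 0 had an unadjusted p under 0.05, and the lowest adjusted p was 0.89, while 0.00736% of all entries were called lower and 5.78% had an unadjusted p under 0.05. Of the 41 log2 differences 39 lay below 0, with a median of -0.17. Both comparisons use the same 5 IR libraries, so their values are given side by side and are not independent. The gavaged groups were also set against each other. In IRLacz against IRLac all 41 differences lay below 0 (median -0.48), 30 had an unadjusted p under 0.05 (9.03% of all entries were lower in that way), and 0 were called at an adjusted p under 0.05 (0.0147% of all entries lower). The lowest adjusted p was 0.093, for Plk1, which was the single gene whose IRLacz libraries all lay below the IRLac libraries (1.57% of all entries). Without IRLac replicate 3, 18 genes were called lower, and without both libraries nearest to sham (IRLacz replicate 1 and IRLac replicate 3) 1 gene was, Mki67. No share over all entries is set beside the counts with libraries left out, so they are descriptions.

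**Figure D3:**
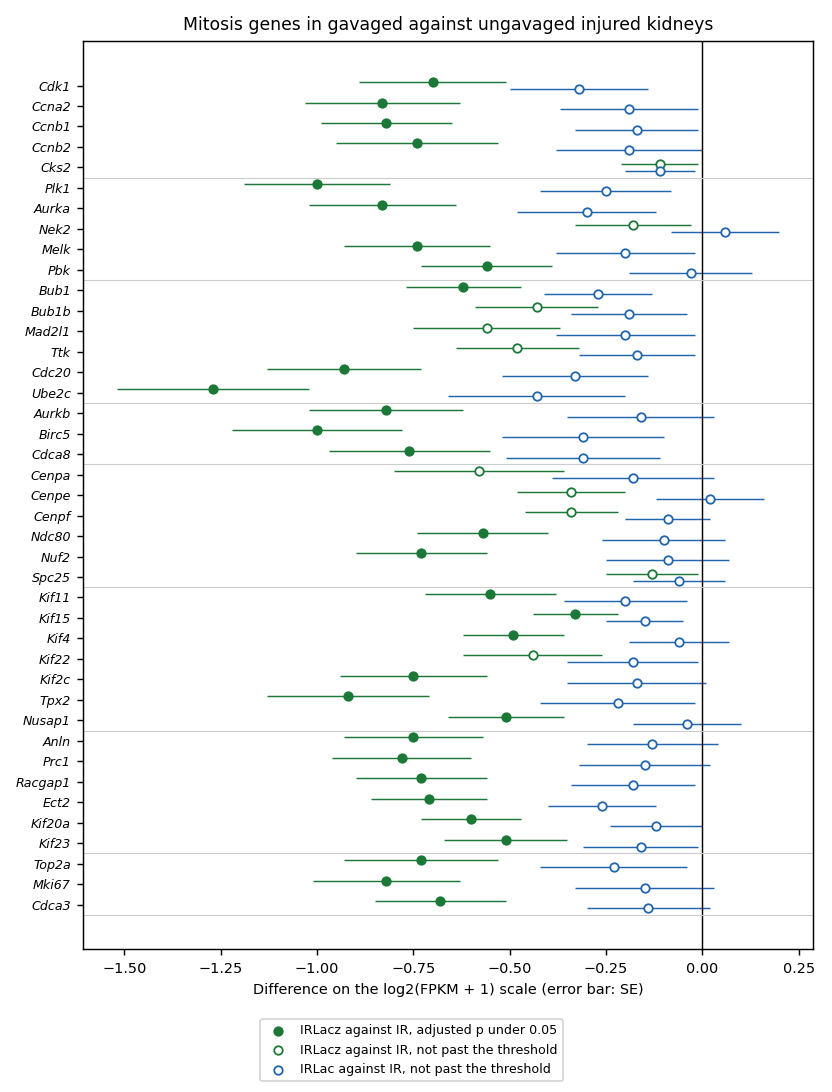
Difference of each mitosis gene on the log2(FPKM + 1) scale, IRLacz against IR (green) and IRLac against IR (blue), with bars of 1 SE; filled points had an adjusted p under 0.05 in limma. Green points lie between -1.27 and -0.11 with 31 filled, and blue points between -0.43 and 0.06 with none filled.

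The genes of entry into mitosis were Cdk1, its cyclins Ccnb1, Ccnb2 and Ccna2, and Cks2, a small subunit that docks Cdk1 onto its substrates. Cdk1, the kinase itself, was at 2.72 to 4.87 FPKM in IRLacz, 3.59 to 8.52 in IRLac, 5.76 to 9.52 in IR and 0.28 to 0.68 in sham kidneys. No IRLacz library reached the lowest IR library, and the difference was -0.70 ± 0.19 (log2, SE; adjusted p = 0.023). Cdk1 was not called without IRLacz replicate 1 (adjusted p = 0.076), IR replicate 2 (0.061) or IR replicate 3 (0.07). Ccnb1, cyclin B1, averaged 3.26 ± 0.81 FPKM in IRLacz, 5.78 ± 1.87 in IRLac, 6.49 ± 1.16 in IR and 0.292 ± 0.054 in sham kidneys. Its IRLacz mean was 50.2% of the IR mean (-0.82 ± 0.17, adjusted p = 0.0074). Reads of Ccnb1 may include those of the pseudogene Ccnb1-ps, which is 99.2% identical over 1287 bases. Ccna2 (-0.83 ± 0.20) and Ccnb2 (-0.74 ± 0.21) were also called lower in IRLacz, and Ccna2 overlaps an exon of Exosc9 on the opposite strand. Ccnb2 was not called without IRLacz replicate 1 (adjusted p = 0.085), IR replicate 2 (0.07) or IR replicate 3 (0.066).

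Cks2 (Entrez Gene 66197) had a nearly flat level. Its levels were 39.6, 39.9, 35.0 and 35.7 FPKM in the 4 IRLacz libraries and 37.7, 40.5, 35.1, 34.2 and 40.5 FPKM in the 5 IRLac libraries. They were 44.99, 44.6, 40.7, 37.5 and 35.2 FPKM in IR and 31.6, 34.2, 29.6, 39.9 and 41.9 FPKM in sham libraries. All 4 groups overlap, and at a mean of 37.8 FPKM over all libraries Cks2 had the highest level of the 41 genes, sham included. Its differences were 0.20 ± 0.09 in IR against sham (adjusted p = 0.06) and -0.11 ± 0.10 in IRLacz against IR (adjusted p = 0.48). The direction against sham turned with the scaling: after median-ratio scaling it was -0.13 in IR, -0.24 in IRLacz and -0.25 in IRLac. Without IR replicate 5, sham replicate 4 or sham replicate 5 it was called higher in IR, at 0.25, 0.24 and 0.26, and likewise with TPM scaling (0.23, adjusted p = 0.035) and library weights (0.19, adjusted p = 0.046).

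Among the mitotic kinases, Plk1 (Entrez Gene 18817), which acts at centrosomes, kinetochores and the midbody, had the lowest adjusted p of the 41 genes in IRLacz against IR. The IRLacz libraries held 2.99, 4.35, 4.38 and 4.24 FPKM and the IRLac libraries 11.5, 7.13, 4.99, 7.93 and 6.50 FPKM. The IR libraries held 10.2, 11.03, 10.8, 7.06 and 6.61 FPKM and the sham libraries 0.46, 0.77, 0.81, 0.69 and 1.20 FPKM. Every IRLacz library was below every IR and every IRLac library, and every injured library was above sham. IRLacz against IR gave -1.0 ± 0.19 (adjusted p = 0.0061, mean at 43.7% of IR), IRLac against IR -0.25 ± 0.17 (adjusted p = 0.96), and IR against sham 2.49 ± 0.17 (adjusted p = 1.3e-09). Plk1 has a pseudogene copy, Plk-ps1, at 93.5% identity over 1813 bases.

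Nek2 (Entrez Gene 18005), a kinase that splits the centrosomes apart, was the one of 5 mitotic kinase genes not called in IRLacz against IR. It was at 3.76, 5.39, 5.15 and 4.30 FPKM in IRLacz, 7.75, 6.75, 3.81, 5.01 and 5.33 FPKM in IRLac, 5.35, 6.4, 5.66, 4.92 and 4.53 FPKM in IR, and 1.98, 2.22, 1.5, 1.98 and 1.33 FPKM in sham libraries. The injured groups overlap each other and lie above sham. Nek2 differed by -0.18 ± 0.15 in IRLacz against IR (adjusted p = 0.44) and by 0.06 ± 0.14 in IRLac against IR (adjusted p = 1), and it was 1.19 ± 0.14 higher in IR than in sham. Of the other kinases, Aurka (Aurora A, of the spindle poles; -0.83 ± 0.19), Melk (-0.74 ± 0.19) and Pbk (-0.56 ± 0.17) were called lower in IRLacz than in IR. Melk was not called without IRLacz replicate 1 (adjusted p = 0.065) or IR replicate 3 (0.061). Pbk was not called without IRLacz replicate 1, 3 or 4 or IR replicate 1, 2 or 3 (adjusted p = 0.056 to 0.11).

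The spindle checkpoint and the partners of the anaphase-promoting complex made up 6 genes, of which 3 were called. Cdc20, the activator of the complex, and Ube2c, the ubiquitin-conjugating enzyme that starts chains on its substrates, were called lower in IRLacz than in IR. Of the checkpoint genes Bub1, Bub1b, Mad2l1 and Ttk, which hold the complex back, Bub1 alone was called. Ube2c (Entrez Gene 68612) was at 6.86, 11.1, 14.1 and 9.36 FPKM in IRLacz and 30.5, 13.0, 14.3, 22.6 and 17.7 FPKM in IRLac libraries. It was at 26.6, 32.96, 33.6, 19.1 and 19.3 FPKM in IR and 1.13, 0.32, 0.64, 1.49 and 0.98 FPKM in sham libraries. No IRLacz library reached an IR library, while IRLac overlapped both groups. Ube2c had the largest difference both in IR against sham (3.83 ± 0.23, 28.9-fold in means) and in IRLacz against IR (-1.27 ± 0.25, adjusted p = 0.0066). In IRLac against IR it was -0.43 ± 0.23 (adjusted p = 0.91). Ube2c overlaps an exon of Tnnc2 on the opposite strand and has a copy, Gm8956, at 93.8% identity over 483 bases.

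Cdc20 averaged 7.63 ± 1.83 FPKM in IRLacz, 12.3 ± 4.34 in IRLac, 15.3 ± 2.65 in IR and 0.988 ± 0.353 in sham kidneys, and it was -0.93 ± 0.20 in IRLacz against IR (adjusted p = 0.01). Cdc20 overlaps an exon of Elovl1 on the opposite strand and has a copy, Gm7856, at 93.7% identity over 1512 bases. Bub1, a checkpoint kinase at the kinetochore, averaged 0.60 ± 0.14 FPKM in IRLacz, 1.08 ± 0.46 in IRLac, 1.47 ± 0.31 in IR and 0.092 ± 0.049 in sham kidneys (IRLacz against IR -0.62 ± 0.15, adjusted p = 0.013). The 3 checkpoint genes not called were at -0.56 ± 0.19 for Mad2l1 (adjusted p = 0.062), -0.48 ± 0.16 for Ttk (0.055) and -0.43 ± 0.16 for Bub1b (0.078). Their differences were smaller than that of Ube2c, and the difference between genes was not tested. Ttk was listed at 0 in sham replicate 1.

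The chromosomal passenger complex, which corrects faulty attachments and later steers cytokinesis, had 3 of 3 genes called: Aurkb, its kinase, Birc5 (survivin) and Cdca8 (borealin) were lower in IRLacz than in IR. Birc5 (Entrez Gene 11799) was at 3.30, 8.28, 7.80 and 7.17 FPKM in IRLacz and 15.6, 9.98, 7.46, 10.6 and 11.9 FPKM in IRLac libraries. It was at 16.01, 17.8, 14.8, 9.61 and 11.5 FPKM in IR and 1.08, 0.62, 0.68, 0.66 and 1.26 FPKM in sham libraries. All IRLacz libraries were below all IR libraries, with replicate 1 lowest. The difference was -1.0 ± 0.22 in IRLacz against IR (adjusted p = 0.011), -0.31 ± 0.21 in IRLac against IR (adjusted p = 0.96) and 2.99 ± 0.21 in IR against sham. Aurkb (-0.82 ± 0.20) and Cdca8 (-0.76 ± 0.21) had adjusted p = 0.017 and 0.025. Cdca8 was not called without IRLacz replicate 1 (adjusted p = 0.085), IR replicate 2 (0.065) or IR replicate 3 (0.071), and it overlaps 9930104L06Rik on the opposite strand.

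Centromere and kinetochore genes had the fewest calls for their number, 2 of 6. Ndc80 and Nuf2, partners in the complex that grips spindle microtubules, were called lower in IRLacz than in IR, at -0.57 ± 0.17 (adjusted p = 0.03) and -0.73 ± 0.17 (adjusted p = 0.014). Ndc80 was not called without IRLacz replicate 1 (-0.35, adjusted p = 0.083), IRLacz replicate 2 or IR replicate 1, 2 or 3 (adjusted p = 0.06 to 0.082). Spc25 (Entrez Gene 66442), a subunit of that same complex, stood at 12.2, 13.3, 12.4 and 10 FPKM in IRLacz, 14.7, 13.8, 9.68, 10.7 and 14.8 FPKM in IRLac, 13.5, 14.6, 14.6, 12.2 and 11.01 FPKM in IR, and 11.6, 10.2, 8.38, 9.53 and 10.2 FPKM in sham libraries. All groups overlap. Its differences were -0.13 ± 0.12 in IRLacz against IR (adjusted p = 0.49) and 0.37 ± 0.12 in IR against sham (adjusted p = 0.0081), and the last was 0.06 after median-ratio and 0.02 after quantile scaling, no longer called.

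Ndc80 had a lower sham level than its partner Spc25: it averaged 1.75 ± 0.76 FPKM in IRLacz, 2.71 ± 0.53 in IRLac, 2.98 ± 0.52 in IR and 0.174 ± 0.051 in sham kidneys, where Spc25 averaged 9.99 ± 1.17 FPKM. FPKM is scaled to length, so these levels can be set side by side with a limit. Ndc80 has copies at 92.9% to 94.0% identity, such as Gm43812 over 403 bases, and its level is uncertain to that extent. The kinetochore genes not called in IRLacz against IR besides Spc25 were Cenpa, the centromeric histone (-0.58 ± 0.22, adjusted p = 0.087), Cenpe, a kinetochore motor (-0.34 ± 0.14, adjusted p = 0.12), and Cenpf (-0.34 ± 0.12, adjusted p = 0.058). Cenpf and Cenpe averaged 1.06 and 1.07 FPKM in IRLacz kidneys, where the log2(FPKM + 1) scale understates a change.

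**Figure D4:**
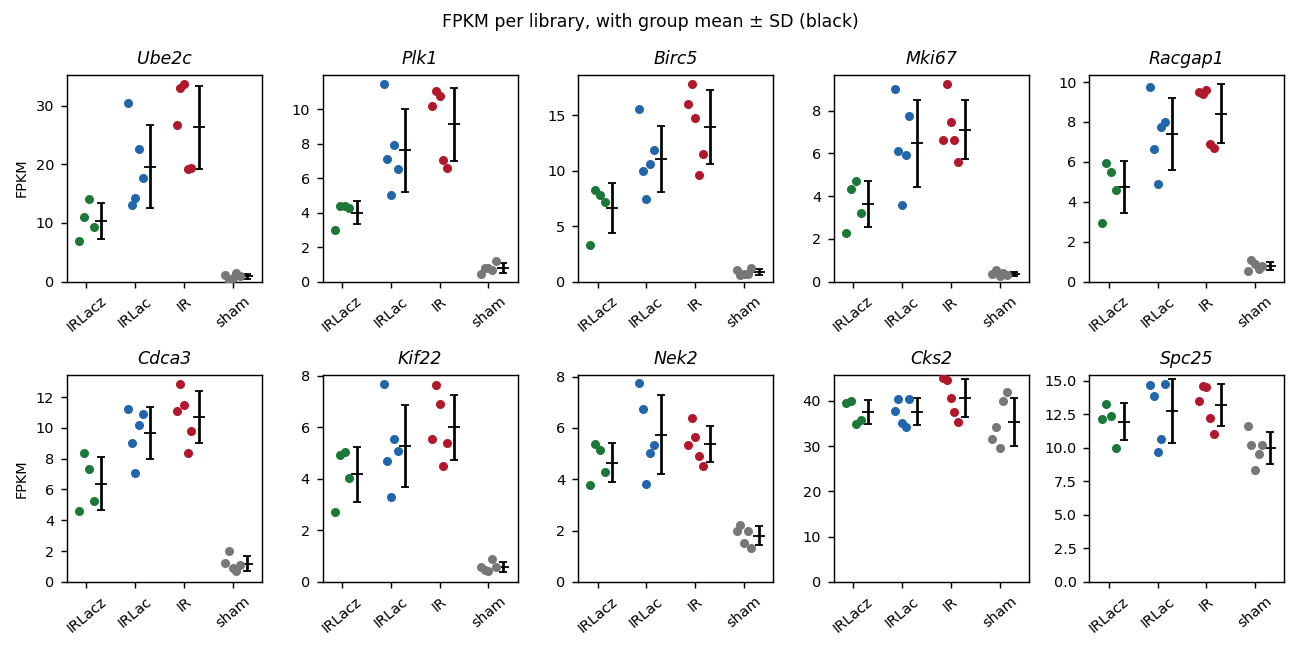
FPKM (vertical axis, from 0) of 10 mitosis genes in each library of IRLacz, IRLac, IR and sham, with the group mean ± SD in black. Ube2c, Plk1, Birc5, Mki67 and Racgap1 have all IRLacz points below all IR points, whereas Cks2 and Spc25 overlap across the 4 groups.

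Of 7 genes of spindle motors and spindle assembly, 6 were called lower in IRLacz than in IR. Tpx2, which activates Aurora A on the spindle, had the largest difference of them (-0.92 ± 0.21, adjusted p = 0.013), followed by Kif2c, a microtubule-depolymerising kinesin (-0.75 ± 0.19, adjusted p = 0.018), and Kif11, the motor that pushes the poles apart, was at -0.55 ± 0.17 (adjusted p = 0.041). Kif22 (Entrez Gene 110033), a chromosome-arm motor, was the one not called. Its mean over all 19 libraries was level with that of Tpx2 (3.998 and 3.995 FPKM), and in IR kidneys Tpx2 was higher (6.65 against 6.00 FPKM). It was at 2.72, 4.94, 5.03 and 4.02 FPKM in IRLacz, 7.68, 4.71, 3.29, 5.56 and 5.08 FPKM in IRLac, 5.56, 7.65, 6.91, 4.49 and 5.40 FPKM in IR, and 0.56, 0.46, 0.42, 0.90 and 0.59 FPKM in sham libraries. IRLacz overlapped IR, and both were above sham. Its difference was -0.44 ± 0.18 in IRLacz against IR (adjusted p = 0.11) and 2.13 ± 0.17 in IR against sham. Kif2c was not called without IRLacz replicate 1 (adjusted p = 0.056). Kif11 was not called without IRLacz replicate 1, 2 or 4 or IR replicate 2, 3 or 4 (adjusted p = 0.06 to 0.14), and Kif15 without IRLacz replicate 1, 2 or 4 or IR replicate 1, 2, 3 or 4 (0.062 to 0.14). Kif4 was not called without IRLacz replicate 1 or 2 or IR replicate 2 or 3 (0.059 to 0.072), and Nusap1 without IRLacz replicate 1 or 2 or IR replicate 1, 2 or 3 (0.055 to 0.096).

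Central spindle and cytokinesis genes were all called lower in IRLacz than in IR, 6 of 6, and in each of them no IRLacz library overlapped an IR library. Racgap1 (Entrez Gene 26934), which with the motor Kif23 forms the centralspindlin complex, held 2.95, 5.92, 5.49 and 4.58 FPKM in IRLacz and 9.74, 6.66, 4.87, 7.75 and 8.01 FPKM in IRLac libraries. It held 9.49, 9.42, 9.60, 6.90 and 6.67 FPKM in IR and 0.52, 1.08, 0.86, 0.65 and 0.76 FPKM in sham libraries. IRLacz was below IR throughout and overlapped IRLac through replicate 3. The difference was -0.73 ± 0.17 in IRLacz against IR (adjusted p = 0.014), -0.18 ± 0.16 in IRLac against IR (adjusted p = 0.99) and 2.40 ± 0.16 in IR against sham.

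Ect2, the exchange factor that centralspindlin recruits to open the furrow, was unusual in how little the IRLacz libraries differed: they held 2.01, 2.14, 2.24 and 2.20 FPKM, with replicate 1 close to the rest. IRLac held 5.22, 3.80, 1.90, 2.97 and 3.26 FPKM, IR 3.92, 4.68, 4.59, 4.40 and 3.28 FPKM, and sham 1.14, 1.43, 1.21, 1.45 and 1.32 FPKM. Ect2 was at -0.71 ± 0.15 in IRLacz against IR (adjusted p = 0.0087). On the log2 scale its IRLacz mean lay 38.7% of the way from sham to IR, the lowest share of the 40 genes called in IR against sham, and Nek2 had the highest at 85.2%. Without IRLacz replicate 1 these shares were 40.5% and 91.8%. IRLac means lay at 76.7% (Bub1) to 105% (Nek2) of that way, and at 89.5% to 114% without IRLac replicate 3. Prc1, which bundles the central spindle, was at -0.78 ± 0.18, Anln, a scaffold of the contractile ring, at -0.75 ± 0.18, Kif20a at -0.60 ± 0.13 and Kif23 at -0.51 ± 0.16. Kif23 was called in 1 of 9 settings with a library left out, the one without IR replicate 5, and had adjusted p = 0.053 to 0.11 in the others. Prc1 overlaps Rccd1 and Kif20a overlaps Cdc23 on the opposite strand.

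The last 3 genes were called lower too. Mki67 (Entrez Gene 17345), the Ki-67 antigen that coats mitotic chromosomes and is the usual histological stain for cycling cells, was at 2.29, 4.33, 4.69 and 3.22 FPKM in IRLacz and 8.99, 6.09, 3.58, 5.93 and 7.73 FPKM in IRLac libraries. It was at 6.63, 9.24, 7.49, 6.61 and 5.58 FPKM in IR and 0.34, 0.52, 0.25, 0.40 and 0.32 FPKM in sham libraries. All IRLacz values lay below all IR values, and IRLac spanned both. Mki67 was at -0.82 ± 0.19 in IRLacz against IR (adjusted p = 0.012), -0.15 ± 0.18 in IRLac against IR (adjusted p = 0.99) and 2.56 ± 0.18 in IR against sham. Without IRLac replicate 3 its difference in IRLac against IR was 0.01, and in IRLacz against IRLac it was then called lower (-0.84, adjusted p = 0.017).

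Cdca3 (Entrez Gene 14793), a trigger of mitotic entry, was at 4.63, 8.34, 7.36 and 5.22 FPKM in IRLacz and 11.2, 9.01, 7.04, 10.2 and 10.9 FPKM in IRLac libraries. It was at 11.1, 12.8, 11.5, 8.38 and 9.80 FPKM in IR and 1.23, 1.98, 0.90, 0.68 and 1.08 FPKM in sham libraries. The highest IRLacz value lay just below the lowest IR value. Cdca3 was at -0.68 ± 0.17 in IRLacz against IR (adjusted p = 0.019), and not called without IRLacz replicate 1 (-0.56, adjusted p = 0.06), IR replicate 2 (-0.62, 0.051) or IR replicate 3 (-0.66, 0.054). Top2a, the topoisomerase that untangles sister chromatids, was at -0.73 ± 0.20 (adjusted p = 0.025) and likewise not called without those libraries (adjusted p = 0.082, 0.067 and 0.063).

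Single libraries set how many genes passed in IRLacz against IR. Without IRLacz replicate 1, 17 genes were called, without IR replicate 2 19, and without IR replicate 3 18. Over all entries, 3.46% were called lower without IRLacz replicate 1, against 7.92% with all libraries. The other 6 libraries left out in turn gave 25 to 33 calls. For the counts without IR replicate 2 or 3 or any of these 6, no share over all entries is given, so they are descriptions. The 17 genes called in each of the 9 settings were Ccna2, Ccnb1, Plk1, Aurka, Bub1, Cdc20, Ube2c, Aurkb, Birc5, Nuf2, Tpx2, Anln, Prc1, Racgap1, Ect2, Kif20a and Mki67. All 41 differences stayed below 0 in each setting. Within groups the libraries ordered alike from gene to gene: IRLacz replicate 1 was the lowest of its group in 35 of the 41 genes, IRLac replicate 3 in 39 and IR replicate 5 in 28. IRLac replicate 1 was the highest of its group in 36 genes and IR replicate 2 in 28. Without both libraries nearest to sham, a choice made after seeing the data, 24 genes were called lower in IRLacz than in IR, beside 5.52% of all entries. The median difference was -0.55 there, the same as without IRLacz replicate 1 alone. The rise from 17 to 24 calls thus reflects the spread estimated over all groups and is no separate check of the difference.

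Each library's place on the sham to IR line can be set beside its mitosis gene level. IRLacz replicates 3 and 4 lay at 87.1% and 98.0% of the way over all other entries, inside or next to the IR range of 87.8% to 107%. Their mitosis gene means were 2.33 and 2.12 on the log2 scale, below the lowest IR library at 2.54. IRLac replicate 3, at 66.9%, had a mean of 2.13. IRLac replicates 1 and 4, both at 101%, had means of 3.03 and 2.62.

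**Figure D5:**
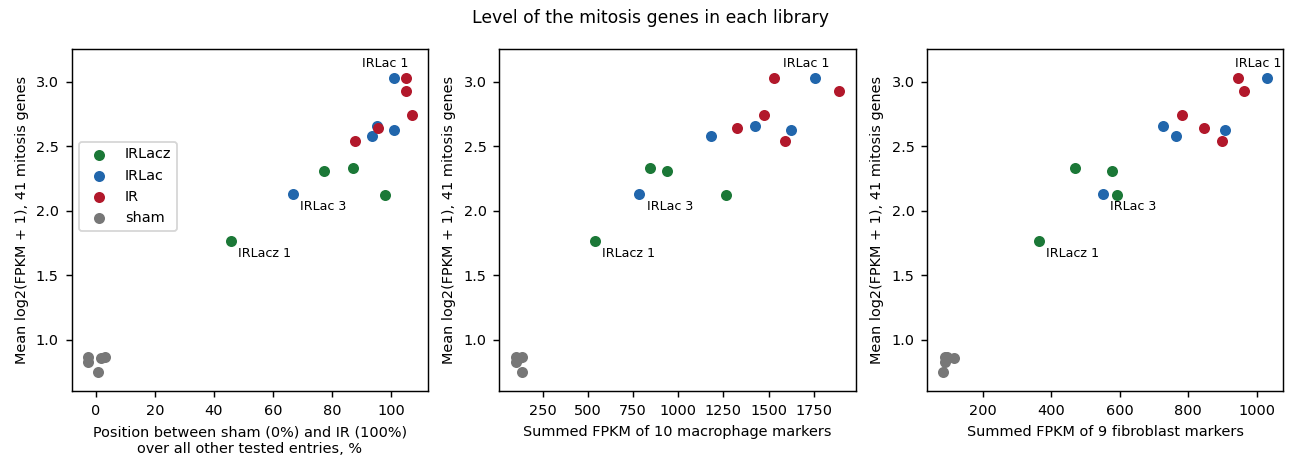
Mean log2(FPKM + 1) of the 41 mitosis genes in each library (vertical axes) against the library's position between sham and IR over all other tested entries (left, in percent), the summed FPKM of 10 macrophage markers (middle) and of 9 fibroblast markers (right). Sham points lie at the lower left, and the 4 IRLacz points lie below all 5 IR points on the vertical axis.

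Macrophage and fibroblast markers were also lower in IRLacz than in IR, when all libraries were used. Of 10 macrophage markers, 10 were called higher in IR than in sham and 6 lower in IRLacz than in IR, beside 57% and 7.92% of all entries. Without IRLacz replicate 1 the last count was 1 of 10 (median -0.50, against -0.75 with all libraries), and without both libraries nearest to sham it was 6, with the same median of -0.50. Over all entries, 3.46% and 5.52% were called lower in these settings. Their summed level was 538 to 1267 FPKM in IRLacz, 786 to 1756 in IRLac, 1323 to 1892 in IR and 101 to 136 in sham libraries. Of 9 fibroblast markers, 9 were called higher in IR than in sham and 6 lower in IRLacz than in IR, with sums of 364 to 591 FPKM in IRLacz, 549 to 1031 in IRLac, 783 to 963 in IR and 83.9 to 116 in sham libraries. Without IRLacz replicate 1, and also without both libraries nearest to sham, 5 of 9 were called lower. Injured tubule markers were called higher in IR than in sham in 9 of 9 and lower in IRLacz than in IR in 1 of 9 genes. The last count was 0 without IRLacz replicate 1 and 1 without both libraries nearest to sham. Injured tubule marker sums were 519 to 1593 FPKM in IRLacz, 813 to 1615 in IRLac, 1195 to 1784 in IR and 98.1 to 121 in sham libraries. The part of these cell types in the mitosis gene result was not tested.

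In IRLacz against IR none of 10 proximal tubule markers, 7 tested T and NK cell markers, 3 tested B and plasma cell markers or 3 tested neutrophil markers was called, and 1 of 7 endothelial markers was called lower, beside 7.92% of all entries. Without both libraries nearest to sham, 1 of the 3 neutrophil markers was called higher, beside 6.44% of all entries. The neutrophil median lay above 0, at 0.68 in IRLacz and 0.65 in IRLac against IR. In IRLacz against IR the T and NK cell median was -0.05 and the B and plasma cell median 0.11. Sums of the 6 listed neutrophil markers were 8.4 to 31.1 FPKM in IRLacz, 4.4 to 39.4 in IRLac, 10.7 to 16.3 in IR and 0.4 to 3.0 in sham libraries. Proximal tubule markers summed to 1949 to 4472 FPKM in IRLacz, 2337 to 4074 in IRLac, 2369 to 3491 in IR and 6055 to 6933 in sham libraries. No marker of these lists was at 0 in all 19 libraries.

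Further genes of cell division were counted from lists outside the 41. The level rule applied to them and to the marker lists over all 19 libraries. Genes that met it only through injured kidneys were not counted apart. The counts of these lists are therefore descriptions and no support for the result in the 41 genes. Of 52 other mitosis genes 46 were tested, of which 20 were called lower in IRLacz than in IR and none higher (median -0.53). Over all entries, 7.92% were called lower and 5.39% higher. Without IRLacz replicate 1, 11 of these mitosis genes were called lower, and without both libraries nearest to sham 19, beside 3.46% and 5.52% of all entries. The median was -0.36 in both settings. IR against sham had 44 called higher and 1 lower, beside 57% and 18.6% of all entries. The most abundant of them were not called in IRLacz against IR, at 0.01 ± 0.08 for Zwint (adjusted p = 0.97) and 0.20 ± 0.08 for Pttg1 (adjusted p = 0.1). Zwint, a kinetochore gene, averaged 57.5 ± 8.0 FPKM in IRLacz, 57.2 ± 5.4 in IRLac, 56.9 ± 2.3 in IR and 48.3 ± 2.7 in sham kidneys. Pttg1, the securin that restrains separase, averaged 54.7 ± 5.3 FPKM in IRLacz, 43.5 ± 4.9 in IRLac, 47.4 ± 2.5 in IR and 51.6 ± 2.4 in sham kidneys. Of 25 tested DNA replication and S phase genes, 8 were called lower in IRLacz than in IR (median -0.33) and 24 higher in IR than in sham, beside 7.92% and 57% of all entries. Leaving out IRLacz replicate 1 gave 3 lower, and leaving out both libraries nearest to sham 6, beside 3.46% and 5.52% of all entries. Pcna, the sliding clamp of replication, averaged 57.6 ± 7.5 FPKM in IRLacz, 67.8 ± 9.8 in IRLac, 77.3 ± 9.3 in IR and 33.2 ± 0.98 in sham kidneys (IRLacz against IR -0.42 ± 0.11, adjusted p = 0.02). IRLac against IR had no call in either list.

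Among 18 tested transcription regulators of the cell cycle, 4 were called lower and 3 higher in IRLacz than in IR, and IR against sham had 12 higher and 2 lower. The counts against sham are near the share over all entries, of which 57% were higher and 18.6% lower. In IRLacz against IR 7.92% of all entries were lower and 5.39% higher. Leaving out IRLacz replicate 1 gave 1 regulator lower and 2 higher, beside 3.46% and 4.83% of all entries. Leaving out both libraries nearest to sham gave 2 lower and 2 higher, beside 5.52% and 6.44%. Foxm1, which drives G2 and mitosis genes, averaged 2.14 ± 0.56 FPKM in IRLacz, 3.88 ± 1.13 in IRLac, 4.27 ± 0.46 in IR and 0.41 ± 0.07 in sham kidneys. It was at -0.76 ± 0.14 in IRLacz against IR (adjusted p = 0.0062) and 1.90 ± 0.14 in IR against sham. E2f1 (-0.42 ± 0.13, adjusted p = 0.042), E2f8 (-0.53 ± 0.17, 0.045) and Tfdp1, an E2F partner (-0.42 ± 0.11, 0.019), were the other lower ones. Tfdp1 was not called without IRLacz replicate 1 (adjusted p = 0.061), IRLacz replicate 2 (0.056) or IR replicate 3 (0.059). E2f1 was not called without IRLacz replicate 1, 2 or 3 or IR replicate 1, 2, 3 or 5 (0.057 to 0.11), and E2f8 without IRLacz replicate 1, 2 or 4 or IR replicate 1, 2 or 3 (0.059 to 0.15). The lowest IRLacz library of E2f8 was at 0.48 FPKM, so E2f8 needed other groups to meet the level rule and its call is a description.

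The higher regulators in IRLacz were Rb1, Rbl2 and Tfdp2. Of the pocket proteins, which restrain E2F, Rb1 and Rbl2 were called and Rbl1 was not, at -0.16 ± 0.10 (adjusted p = 0.28). Rb1, the retinoblastoma gene, averaged 8.76 ± 0.52 FPKM in IRLacz, 7.27 ± 0.99 in IRLac, 6.50 ± 0.67 in IR and 5.71 ± 0.48 in sham kidneys (IRLacz against IR 0.38 ± 0.09, adjusted p = 0.013). Its direction in IR against sham turned with scaling, at 0.16 ± 0.08 as deposited and -0.13 after median-ratio scaling. Rbl2 averaged 14.4 ± 1.0 FPKM in IRLacz, 12.5 ± 1.3 in IRLac, 11.4 ± 1.3 in IR and 16.03 ± 0.79 in sham kidneys (0.31 ± 0.08 in IRLacz against IR, adjusted p = 0.02). Rbl2 was not called without IRLacz replicate 1 or 2 or IR replicate 2 or 3 (adjusted p = 0.055 to 0.063). Tfdp2 was at 0.34 ± 0.08 in IRLacz against IR (adjusted p = 0.013). Mybl2, which encodes B-Myb, was not called (-0.40 ± 0.15, adjusted p = 0.076).

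Of 6 cyclins and kinases of G1, the phase before replication, 2 were called lower in IRLacz than in IR, beside 7.92% of all entries. They are named although the naming rule does not cover them, so they were chosen after their values were seen: Ccnd2 (-0.51 ± 0.10, adjusted p = 0.0061) and Cdk6 (-0.42 ± 0.13, adjusted p = 0.043). Cdk6 was not called without IRLacz replicate 1 or 2 or IR replicate 1, 2 or 3 (adjusted p = 0.089 to 0.14). Cdk4, the most abundant of them, averaged 101.4 ± 21.6 FPKM in IRLacz, 115.6 ± 15.8 in IRLac, 109.4 ± 7.85 in IR and 41.1 ± 1.39 in sham kidneys. Of 7 CDK inhibitors, 1 was called lower in IRLacz than in IR, beside 7.92% of all entries. Without IRLacz replicate 1, and also without both libraries nearest to sham, 1 was called lower and 1 higher. The lower one with all libraries was Cdkn2a (-0.73 ± 0.17 in IRLacz against IR, adjusted p = 0.014). It averaged 0.49 ± 0.16 FPKM in IRLacz, 0.738 ± 0.374 in IRLac, 1.51 ± 0.57 in IR and 0.14 ± 0.046 in sham kidneys. No IRLacz, IRLac or sham library of Cdkn2a reached 1 FPKM (highest 0.58, 0.98 and 0.18 FPKM). It met the level rule through IR libraries alone, so its call is a description. Cdkn1a, which encodes p21, averaged 27.9 ± 13.0 FPKM in IRLacz, 39.5 ± 13.2 in IRLac, 42.6 ± 8.3 in IR and 15 ± 3.0 in sham kidneys and was not called in IRLacz against IR (-0.69 ± 0.28, adjusted p = 0.11).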

How the data were processed

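The authors deposited 1 table of FPKM values with 2 decimals and a column per library. HISAT, StringTie 1.0.4 and mm9, a mouse build, appear in the submitters' processing notes with no role. How genes were annotated, strand handled and values filtered is not given in the sources used here. Sample titles gave groups and replicate numbers. No label says that each library is a mouse of its own, so p-values measure the spread between these libraries, which may be technical.

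Read depth is unknown. In 558 genes with a repeated lowest value, of 2483 values worth 2 to 5 steps 15.7% were at most 0.1 step off a whole number (20% with no steps), so whole reads were not recovered. A failed estimate may underlie a 0, since 27 entries had one in some library despite a median above 5 FPKM.

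The 13594 entries that reached 1 FPKM in 4 or more libraries were tested as log2(FPKM + 1), which understates the change of low genes, with limma 3.58.1 in R 4.3.3 (mean-variance trend). All 19 libraries entered 1 model. Benjamini-Hochberg adjustment ran over all tested entries of a comparison, with a threshold of 0.05. A difference is the first named group minus the second. These steps were tested on simulated data. Symbols came from RefSeq (18238 of 19287 entries matched). Values in every library are given for the gene with the highest mean in each role, for the 3 largest and the 3 smallest differences in IRLacz against IR, for Mki67 and, chosen after its values were seen, for Ect2. Of the further lists, the 2 most abundant genes and the called regulators and inhibitors could be named. Other genes named with values were chosen after those were seen. The 41 genes and the lists were chosen with earlier results of these data known.

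Exon overlaps were read from GENCODE annotation, and copies of at least 90% identity over at least 300 bases were sought with BLAST 2.17.0. Of the 41 genes, 8 overlap a protein-coding exon on the opposite strand and 11 have such a copy, 3 of them (Ccnb1, Mad2l1 and Pbk) at 95% or more. Without strand, those reads cannot be told apart, and levels of these genes are uncertain to that extent. Tables of transcription factors were not used here, and 1 list of kidney markers is not reported here.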

Additional observations from a re-analysis of the deposited data

Results flagged for a closer look

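Of 168 sets of values looked at (41 genes and their mean level in 4 groups each), 6 held a library that stood apart from the others of its group, and chance alone marks about 1 in 20 such sets. In IRLacz replicate 1, Plk1 was at 2.99 FPKM, against 4.24 to 4.38 FPKM in the other IRLacz libraries, and Aurkb was at 1.55 FPKM, against 3.49 to 3.86 FPKM. In IR replicate 5, Melk was at 1.81 FPKM, against 2.92 to 3.37 FPKM in the other IR libraries. In IR replicate 2, Pbk was at 6.57 FPKM, against 4.27 to 4.38 FPKM. In sham replicate 3, Ccna2 was at 0.46 FPKM, against 0.88 to 1.03 FPKM in the other sham libraries, and Kif15 was at 0.02 FPKM, against 0.09 to 0.11 FPKM.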

How the results depend on the processing

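Against the 31 mitosis genes called in IRLacz against IR, a pseudocount of 0.1 gave 24, no filter 28, TPM scaling 27, median-ratio and quantile scaling 34 each, the 2 groups alone 24 and library weights 32. Leaving out 1 library gave 17 to 33, and the causes were not tested. Testing entries with a mean of at least 5 FPKM left 15 of the 41 genes, of which 11 were called, against 14 in IR against sham, 13 in IRLacz against sham and 14 in IRLac against sham. In IRLacz against IRLac, leaving out 1 library gave 0 to 18 calls, and leaving out both libraries nearest to sham, chosen after seeing the data, gave 1. Leaving out 1 library gave 40 to 41 calls in IR against sham, 39 to 40 in IRLacz against sham, 39 to 40 in IRLac against sham and 0 in IRLac against IR, where every alternative gave 0. In IRLacz against sham quantile scaling gave 33. No share over all entries is set beside the counts in this paragraph, so they only describe how the calls of the 41 genes moved.

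Directions turned in weakly changing genes, and the cause was not tested. After median-ratio scaling Cks2 was at -0.13 in IR against sham, -0.24 in IRLacz against sham (adjusted p = 0.049) and -0.25 in IRLac against sham (adjusted p = 0.027), and Spc25 at -0.07 in IRLacz and -0.01 in IRLac against sham. After quantile scaling Cks2 was at -0.03 and Spc25 at -0.10 in IRLacz against sham, Cks2 at -0.05 and Spc25 at -0.03 in IRLac against sham, and Ect2 at -0.09 in IRLacz against sham. In IR against sham Rb1 was at -0.13 and -0.26, and Tfdp2 at -0.22 and -0.36, after median-ratio and quantile scaling. Mki67 in IRLac against IR ran from -0.27 to 0.01 with 1 library left out (0.01 without IRLac replicate 3) and was at 0.01 without both libraries nearest to sham.

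The replicate numbers showed no clear pairing, although so few correlations cannot exclude one. Correlations of same-numbered libraries' deviations ran from -0.296 to 0.226 in IRLacz against IR and from -0.394 to 0.23 in IRLacz against IRLac. With the replicate number as a block, 25 mitosis genes were called in IRLacz against IR, 40 in IR against sham, 39 in IRLacz against sham, 40 in IRLac against sham, and 0 in IRLac against IR and in IRLacz against IRLac.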
